A study of Mus musculus with 24 samples.

Results

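The activator protein 1 (AP-1) and immediate early genes described here were 10 transcription factor genes, namely Fos, Fosb, Fosl1, Fosl2, Jun, Junb, Jund, Atf3, Egr1 and Myc. Their members were the N6-methyladenosine (m6A) peaks that overlapped an exon of these genes by at least 1 bp on the same strand in the GRCm38 annotation (GENCODE M21). The rule found 60 peaks among the 91013 peaks of 12 mouse kidneys. Peaks of different kidneys that overlapped on the same strand were joined into loci, which gave 11 loci of these genes among 16815 in all. A peak was listed in at least 1 kidney for 8 of the 10 genes, while Fos and Fosl1 had none in any list. Across the genome 7774 of 21951 protein-coding genes had a peak.

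MeRIP-seq, in which an antibody against m6A enriches fragmented mRNA before sequencing, was performed on kidneys of male mice aged 8 weeks, given as C57 in the labels and as C57BL/6 in the methods. The 4 control mice received vehicle daily for 14 days and then a vehicle injection. The 4 mice of the injury group (IG) received the same daily vehicle and then cisplatin, a platinum anticancer drug that damages kidney tubules, at 20 mg/kg. The 4 mice of the treatment group (TG) received berberine, a plant alkaloid, at 20 mg/kg per day for 14 days before the same cisplatin dose, and all kidneys were taken 72 h after the injection. IG was compared with controls (IvC) and TG with IG (TvI). No group received berberine alone, so berberine was compared only on top of cisplatin.

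AP-1 is a dimer of basic leucine zipper proteins of the JUN, FOS and ATF families that binds DNA and switches on genes of proliferation, stress and inflammation. Many of its subunits, like EGR1 and MYC, are encoded by immediate early genes, whose transcription starts within minutes of a stimulus without new protein synthesis and whose mRNAs are short-lived. In kidney, ATF3, JUN and EGR1 are known as factors of the response to toxic and ischemic injury. m6A is the most common internal mark of mRNA, is deposited by the METTL3 and METTL14 complex, often at the letters GGACT, and is densest around stop codons.

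The peaks covered long exons, so the sequences below show where the letters GGACT lay closest to the stop codon within the stretch that every listed peak of a locus shared. They are shown for 6 of the 11 loci, those of the JUN genes, Atf3, Fosl2 and Myc that hold a stop codon, and not for Egr1 or Fosb, in GRCm38, 5′ to 3′ on the strand of the gene, with GGACT in capitals.
Atf3 exon 4 (chr1:191170634-191170658, minus strand): aaagggtgtaGGACTccatactcag
Jun exon 1 (chr4:95050127-95050151, minus strand): tacacaagatGGACTgggttgcgac
Jund exon 1 (chr8:70700097-70700121, plus strand): gcgcatgcgcGGACTagctgcggtg
Junb exon 1 (chr8:84977259-84977283, minus strand): ctcacacactGGACTccggcccgcc
Fosl2 exon 4 (chr5:32153314-32153338, plus strand): ccacccggtgGGACTtagtggtgag
Myc exon 3 (chr15:61989829-61989853, plus strand): cctctgaaaaGGACTtattgaggaa
The central A lay downstream of the stop codon by 26 nt in Jund, 124 nt in Junb, 128 nt in Jun, 137 nt in Fosl2 and 836 nt in Atf3, all in the 3′ UTR. In Myc it lay in the coding sequence, at -67 nt from the stop codon. GGACT occurred 31 times on the gene strand of the 11 loci and 22 times on the opposite strand, and 9 of the 11 loci held it on the gene strand. The exceptions were Fosl2 exon 3 and Fosb exon 4. Among all loci 39.1% held it, and among those of 1000 to 3189 bp 81.8% did, so that its presence in long loci was usual. Myc exon 2, Fosl2 exon 3 and both Fosb loci were shorter than 1000 bp. Its density was 1.87 per kb in the 11 loci, and 1.15 per kb both in all loci and in those of 1000 to 3189 bp. A match shows only that the letters are there, and peaks of this length do not place the methylated base.

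The lists held 8531 to 9579 peaks in control kidneys, 6745 to 8357 in IG and 5901 to 6753 in TG. The score of a peak is -10 times the log10 of its p-value, starts just above 13.0, and piled up at exactly 3100 for 66 to 116 peaks of each list. It depends on RNA amount and sequencing depth as well as on methylation, and the depth is unknown because no read counts come with the peaks. To compare kidneys, each score was therefore turned into its percentile within its own list, with 0 where no peak was listed. A peak missing from a list may lie below the calling threshold, and in whole kidney fewer cells of a type and less RNA per cell cannot be told apart. Neither the input libraries nor the RNA-seq were analysed here, so RNA levels of these genes stand beside none of the values. Of 12 kidney markers, 6 had a peak in at least 1 kidney, while the tubule markers Lrp2, Slc34a1, Umod, Slc12a3, Calb1 and Aqp2 had none, so the peak lists checked the tissue label only in part. Of the 4 kidney markers tested in IvC, 3 had a peak in more IG kidneys by at least 3. Of all 7526 genes tested, 4.40% had a peak in at least 3 more IG kidneys and 8.98% in at least 3 fewer. Atp6v1b1, of intercalated cells, was listed in 0 control, 4 IG and 4 TG kidneys, Slc12a1, of the thick limb, in 1, 4 and 0, and Nphs1, of podocytes, in 1, 4 and 2. No locus or gene passed Benjamini-Hochberg adjustment at 0.05 in either comparison. At an unadjusted p under 0.05, Fisher's exact test called 655 of 16072 loci in IvC and 89 of 13367 in TvI. The permutation test of the percentiles called 2040 and 477. All tests were two-sided. These p-values measure the spread between mice, and 0.0286 is the smallest that 4 against 4 kidneys allow. With this limit, adjustment could be passed only if most of the loci or genes tested reached it.

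Between 4 and 6 of the 10 genes had a peak in each control kidney, 2 to 6 in each IG kidney and 4 or 5 in each TG kidney. The lowest number was that of IG replicate 4, in which only Jun and Atf3 were listed. In IvC, 3 of the 11 loci had a peak in more IG than control kidneys, 7 in fewer and 1 in the same number. Atf3 was the 1 locus listed in every kidney of a group and in none that it was compared with, in the direction of IG. Such a gain in IG was seen at 1.35% of all loci tested and such a loss at 2.73%, and for genes the shares were 1.9% and 3.16%. In TvI, 0 of 8 loci and 0 of 7 genes differed in this way by Fisher's exact test, against 0.217% of all loci gained and 0.449% lost, and 0.255% of all genes gained and 0.51% lost.

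**Figure D1:**
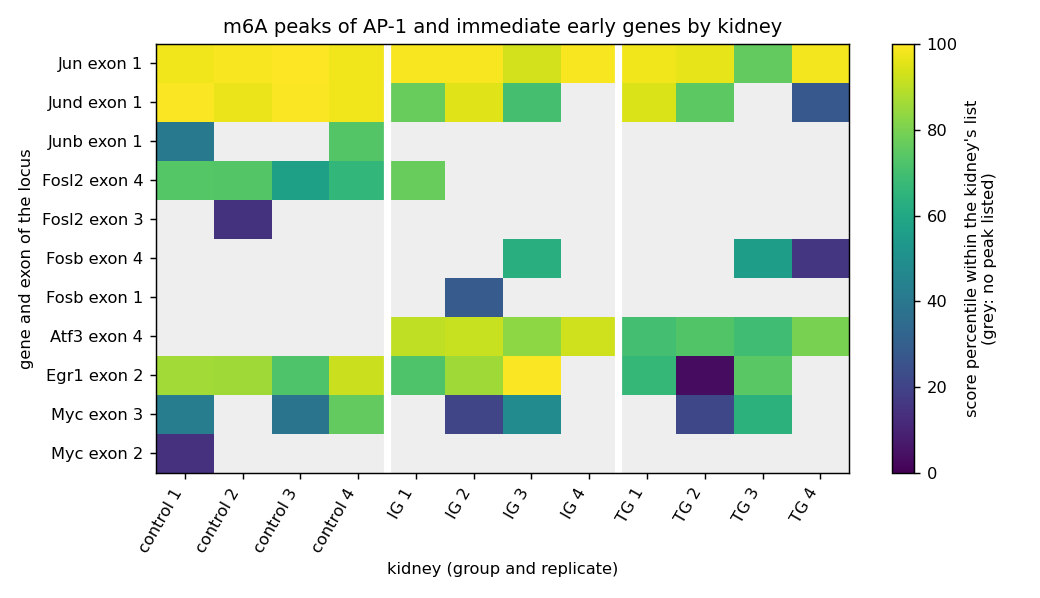
Peaks of the 11 loci (rows) in the 12 kidneys (columns), coloured by the percentile of the peak score within the list of that kidney, with grey where no peak was listed. Jun is filled in all 12 kidneys, Atf3 in the 8 cisplatin-treated kidneys alone, and Fosl2 exon 4 in 4 control kidneys and 1 IG kidney.

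Atf3 encodes a stress-induced factor that pairs with JUN proteins and mostly represses transcription. Its locus was the whole of exon 4, the last exon (chr1:191170296-191171679, minus strand, 1384 bp), which holds 195 bp of coding sequence, the stop codon and the 3′ UTR. No control kidney listed a peak there. The scores in IG were 692.84, 808.18, 332.84 and 895.92, and those in TG were 154.58, 183.87, 145.80 and 297.32. All 8 kidneys of mice given cisplatin thus had the peak, with identical borders, and every TG score lay below every IG score. The 4 of 4 against 0 of 4 kidneys in IvC gave p = 0.0286 by Fisher's exact test, with an adjusted p of 0.701 over all loci and 0.564 over all genes. The mean percentile was 89.5 ± 4.44 (SD, n = 4) in IG. In TG it was 73.0 ± 4.92 (SD, n = 4), so the peak stood in the upper part of every list that held it. The TvI difference was -16.4 percentile points, with the groups not overlapping and p = 0.0286 by exact permutation test (adjusted p = 0.801). With lists of equal length, it was -15.4 with p = 0.0571 by the same exact permutation test, and p was also 0.0571 without IG replicate 1, 2 or 4 or without TG replicate 3. By the percentile test, 1.31% of all loci were higher and 2.26% lower in TvI, and Atf3 was the only 1 of the 8 loci called. Itgam, a leukocyte marker, and Atp6v1b1, the kidney marker given above, had the same pattern as Atf3, in 0 control, 4 IG and 4 TG kidneys. The other leukocyte markers with a peak were Ptprc, in 1 control kidney, S100a8, in 1 TG kidney, and S100a9, in 2 TG kidneys, while 8 of the 12 had none, among them Adgre1, Cd68 and Csf1r. The part of leukocytes or of kidney cell types in the Atf3 peak was not tested.

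Jun encodes c-Jun, the main activating subunit of AP-1, on a gene of a single exon. Its locus was that exon (chr4:95049034-95052222, minus strand, 3189 bp), from the 5′ end through the start and stop codons into the 3′ UTR. The scores in control kidneys were 1807.38, 2793.43, 3224.03 and 2259.98. In IG they were 3100, 3100, 892.04 and 3100, and in TG 2327.08, 1492.46, 210.00 and 3068.31. Jun was the 1 locus of the 11 with a peak in all 12 kidneys, as 14.4% of all loci were. In control replicate 3 it had the highest score of all 8986 peaks, while the IG scores of 3100 were shared with many other peaks. IG replicate 3 and TG replicate 3 were the low samples of their groups. The mean percentiles were 98.7 ± 1.02 in controls, 97.7 ± 2.92 in IG and 92.1 ± 10.8 in TG (SD, n = 4 each). The differences were -0.97 in IvC (p = 0.8286) and -5.59 in TvI (p = 0.457) by exact permutation test, within the spread of the kidneys. Without IG replicate 3 the IvC difference was 0.486, and without TG replicate 3 the TvI difference was -0.198.

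Jund encodes JunD, a subunit present in resting cells and often a brake on growth, and is also a gene of a single exon. Its locus (chr8:70698201-70700616, plus strand, 2416 bp) held the whole coding sequence and began upstream of the exon start in GENCODE, within the longer RefSeq gene. The control scores were 3100, 1617.33, 3100 and 2149.48. In IG replicates 1 to 3 they were 246.22, 1327.17 and 162.11, and IG replicate 4 listed no peak. In TG replicates 1, 2 and 4 they were 1092.86, 203.37 and 32.58, and TG replicate 3 listed none. Every control score was above every IG and TG score. The mean percentile was 98.5 ± 1.17 in controls, 60.6 ± 41.7 in IG and 49.2 ± 43.2 in TG (SD, n = 4 each, 0 where unlisted). The IvC difference was -38.0 percentile points, with p = 0.0286 by exact permutation test and an adjusted p of 0.225. Without IG replicate 4, where no peak was listed, it was -17.8 (p = 0.0286 by exact permutation test). Without any 1 control kidney, this exact permutation p lay between 0.0571 and 0.0857. Lower percentiles were called at 8.84% of all loci in IvC and higher ones at 3.86%, and among the 11 loci Jund was the 1 called lower and Atf3 the 1 called higher. The TvI difference for Jund was -11.4 (p = 0.771, exact permutation test), and ranged from -31.6 without IG replicate 4 to 5.00 without TG replicate 3.

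Junb encodes JunB, a subunit that can activate or oppose c-Jun. A peak over its single exon (chr8:84976909-84978748, minus strand) was listed in control replicate 1 with a score of 50.33 and in control replicate 4 with 211.15. None of the 8 other kidneys of IG and TG held the peak. The difference of 2 of 4 against 0 of 4 kidneys gave p = 0.429 by Fisher's exact test.

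FOS proteins cannot pair with each other and act through JUN partners. Fos and Fosl1, which encode c-Fos and FRA-1, had no peak in any of the 12 lists. Fosl2 encodes FRA-2, and its main locus lay in exon 4 (chr5:32152671-32154337, plus strand), which holds 516 bp of coding sequence, the stop codon and the beginning of the 3′ UTR. The control scores were 196.92, 189.18, 93.47 and 147.93. IG replicate 1 scored 247.25, and none of the other 3 IG and 4 TG kidneys listed a peak. All controls and 1 of the 8 other kidneys thus had it, and that 1 kidney scored above every control. The presence in 1 of 4 IG against 4 of 4 control kidneys gave p = 0.143 (adjusted p = 1) by Fisher's exact test. Without IG replicate 1 the contrast was 0 of 3 against 4 of 4, with p = 0.0286 in the same exact test and an adjusted p of 0.525 over all loci. This follows from leaving out the 1 IG kidney with the peak. Without any other 1 IG or control kidney, p stayed at 0.143 by Fisher's exact test. A further peak, on exon 3 of Fosl2 (chr5:32150421-32150528), was listed in control replicate 2 with a score of 21.06.

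Fosb, which encodes FosB and the truncated form known as deltaFosB, was listed in 0 control, 2 IG and 2 TG kidneys. Its exon 4, the last exon, had a peak (chr7:19304493-19305302, minus strand) in IG replicate 3 with a score of 117.18, in TG replicate 3 with 83.09 and in TG replicate 4 with 22.31. Exon 1 had a peak (chr7:19309306-19310045) in IG replicate 2 alone, with a score of 32.95. The Fosb gene thus had peaks only in kidneys of mice given cisplatin, in 4 of 8, and on different exons. The gene-level difference in IvC gave p = 0.429 by Fisher's exact test.

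Egr1 encodes a zinc finger factor outside the AP-1 dimer that is induced with it. Its locus was exon 2 (chr18:34862465-34864984, plus strand, 2520 bp), which holds 1301 bp of coding sequence, the stop codon and the 3′ UTR. The control scores were 405.06, 396.43, 183.03 and 749.25. In IG replicates 1 to 3 they were 188.94, 457.46 and 3100, and IG replicate 4 listed no peak. In TG replicates 1 to 3 they were 130.21, 14.28 and 191.52, and TG replicate 4 listed none. IG ranged from no peak to 3100, a score that 116 peaks of the list of IG replicate 3 shared. The mean percentiles were 84.1 ± 8.29 in controls, 64.3 ± 44.3 in IG and 36.1 ± 39.8 in TG (SD, n = 4 each). Neither the IvC difference of -19.8 (p = 0.514) nor the TvI difference of -28.3 (p = 0.314) exceeded the spread by exact permutation test. Without 1 kidney at a time, the IvC difference ranged from -31.4 (without IG replicate 3) to 1.68 (without IG replicate 4, which had no peak). The TvI difference ranged from -49.7 (without IG replicate 4) to -16.2 (without TG replicate 4).

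Myc encodes c-Myc, a helix-loop-helix factor of growth and metabolism. Its last exon, exon 3, had peaks (joined, chr15:61989346-61990374, plus strand) in control replicates 1, 3 and 4 with scores of 53.35, 47.22 and 245.47. IG replicates 2 and 3 scored 25.64 and 64.86, and TG replicates 2 and 3 scored 25.87 and 117.18. The groups overlapped, and the exact permutation test gave p = 0.371 in IvC and p = 0.8286 in TvI. Exon 2 had a peak (chr15:61987422-61988278) in control replicate 1 alone, with a score of 20.54.

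**Figure D2:**
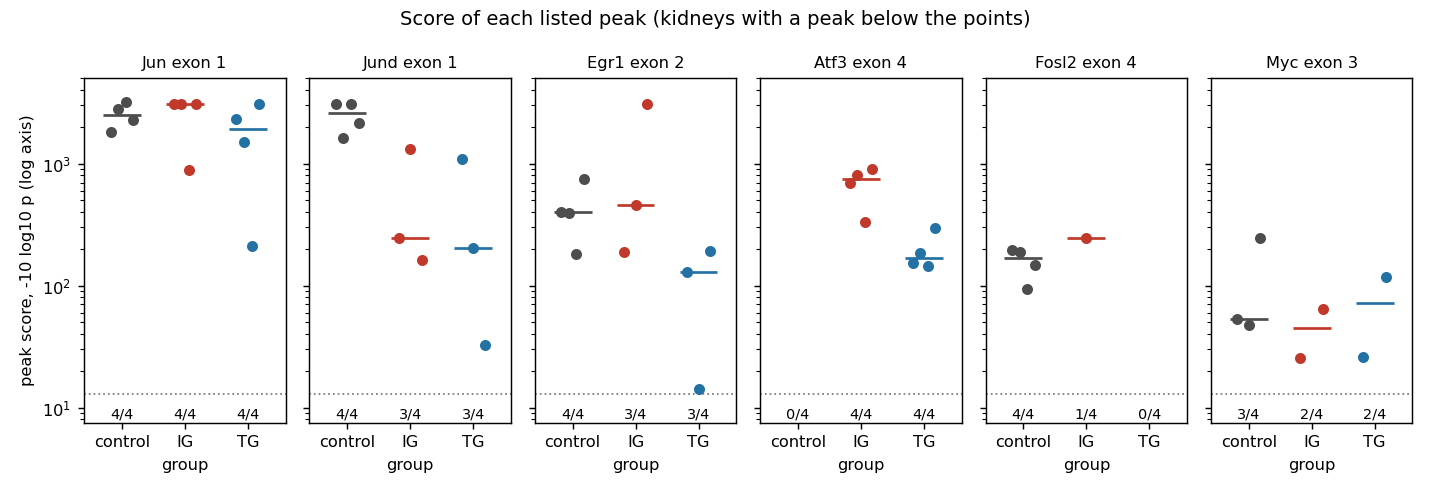
Score of every listed peak (log axis, -10 log10 p) at 6 loci, with 1 point per kidney, a line at the median of the listed peaks and the number of kidneys with a peak under the points. The dotted line is the lower limit of the score, just above which the lists begin. Atf3 has no control point and its TG points (145.80 to 297.32) lie below its IG points (332.84 to 895.92), while every Jund control point lies above the IG and TG points.

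Most of the 60 peaks shared a position that the choice of genes did not use. A stop codon lay inside 57 of the 60, or 95.0%, against 26.4% of all peaks on coding exons. A start codon lay inside 41.7% against 13.0%. Their median length was 1841 bp against 351 bp, and 21 of the 60 covered a whole annotated exon, against 65.4% of all peaks. Their median score was 228, against 71.5 for all peaks on coding exons. Each locus was counted once per kidney, so that Jun alone gave 12 of the 60 peaks. The loci without a stop codon were Myc exon 2, Fosl2 exon 3 and Fosb exon 1, each listed in 1 kidney. Peaks of different kidneys at 1 locus are not independent, so no test was made of these shares. No share was taken over peaks of like length, so the part of length in them was not tested.

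The borders of the peaks differed between control and IG kidneys where both had peaks. At all 5 such loci, namely Jun, Jund, Egr1, Fosl2 exon 4 and Myc exon 3, every IG peak was longer than every control peak. Over all loci with a peak in both groups, 5.3% had longer peaks in IG without overlap and 7.94% had shorter ones. Over loci of at least 1000 bp, the closer comparison, the shares were 10.3% and 19%. This pattern was noticed after the values had been seen. Fosl2 contributed 1 IG peak and Myc 2, so that at these loci the absence of overlap rests on few kidneys.

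For Egr1, the 3′ border lay 583, 538, 482 and 537 nt past the stop codon in control replicates 1 to 4, and at 1216 nt, the end of the exon, in all 3 IG and all 3 TG kidneys with a peak. The IG border was thus 681 nt further downstream (p = 0.0286 by exact permutation test, adjusted p = 0.191, 3 IG against 4 control kidneys). For Jun, it lay at 806, 870, 635 and 1086 nt in controls, and at 1233, 1197, 1156 and 1233 nt in IG. The means were 849 ± 186 and 1205 ± 36.7 nt (SD, n = 4 each), and the exact permutation test gave p = 0.0286 (adjusted p = 0.191). In TG the Jun border lay at 1206, 1227, 1233 and 1233 nt, which overlapped with IG (p = 0.429, exact permutation test). In TvI a 3′ border was called further downstream in TG at 4.67% and further upstream at 1.35% of all loci over a stop codon with enough peaks. Of these genes only Jun could be called there, since the Atf3 border lay at the end of its exon in all 8 kidneys. Among all 1081 loci over a stop codon with 7 or 8 peaks in IvC, 3.89% had a 3′ border called further downstream in IG and 11.1% further upstream, so the direction seen in Jun and Egr1 was the less common. Leaving out 1 kidney at a time, Jun lost the call without any 1 IG kidney (exact permutation p = 0.0571 each) and kept it without any 1 control. Egr1 lost it without any 1 control kidney (p = 0.1, exact permutation test) and without any 1 of the 3 IG kidneys with a peak (p = 0.0667, exact permutation test). These were the smallest p-values that the remaining Egr1 peaks allowed, so its call could not have been kept. The groups still did not overlap in any of these settings.

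Jund differed at its other end. Its 3′ border lay at the end of the exon, 533 nt past the stop codon, in all 10 kidneys and could not lie further downstream in the exon. The 5′ border, counted from the stop codon, lay from -1511 to -1613 nt in controls, from -1690 to -1882 nt in IG and from -1606 to -1696 nt in TG. In Fosl2 the 3′ border lay at 788, 827, 789 and 872 nt in controls and at 1148 nt in IG replicate 1. In Myc it lay at 299, 343 and 288 nt in controls, 400 and 436 nt in IG, and 466 and 396 nt in TG. Between TG and IG, 0 of 6 loci had longer peaks without overlap, against 13.3% longer and 8.69% shorter among loci of at least 1000 bp. At Atf3 and Egr1 every IG and TG peak covered the whole exon, and at Jun the longest IG peaks did, at 3189 bp. Within the exon, TG peaks of these genes therefore could not exceed every IG peak, so the count of 0 says little. At Jund the longer IG peaks scored below every control peak, while at Fosl2 the longer IG peak scored above every control peak, and at Jun 3 of the 4 IG peaks were at 3100. How RNA amount and depth bear on the borders was not tested.

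**Figure D3:**
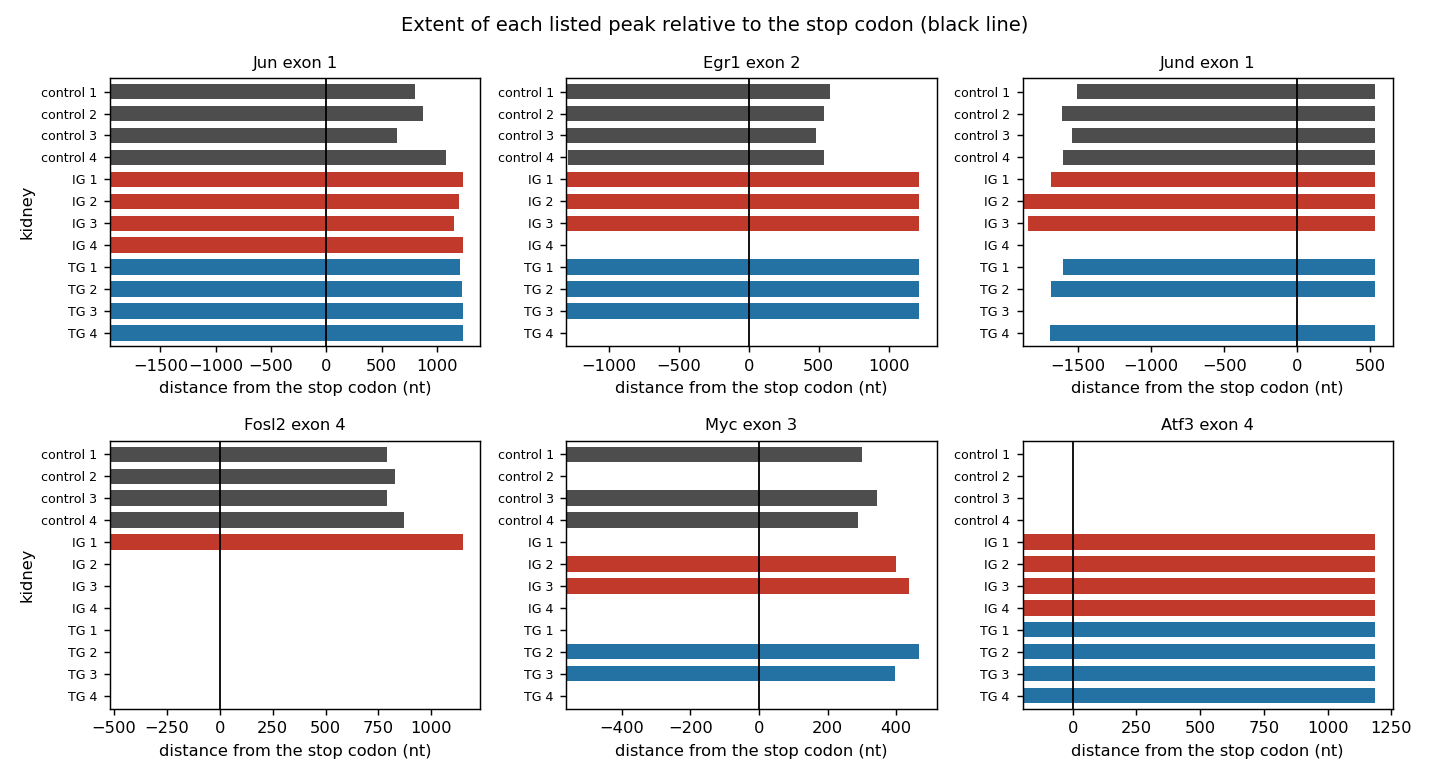
Extent of each listed peak at 6 loci, with 1 bar per kidney and the distance in nt from the stop codon (black line), negative upstream. Egr1 bars end at 482 to 583 nt in controls and at 1216 nt in IG and TG, Jun bars reach further downstream in IG than in every control, and Jund bars differ at their left end.

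The partners and upstream factors of these genes were described by the number of kidneys in which a gene had any peak. Among 22 other leucine zipper factors, 13 had a peak in at least 1 kidney, and 0 of 12 tested in IvC and 0 of 12 in TvI were gained or lost in all kidneys by Fisher's exact test (also 0 at an unadjusted p under 0.05). Atf7, Jdp2, Creb1, Maf and Cebpg had a peak in all 12 kidneys, like Jun. Among 46 other immediate early genes, 18 or 19 had a peak in each control kidney, 9 to 14 in each IG kidney and 7 to 9 in each TG kidney. Of the 29 tested in IvC, 4 were lost in all IG kidneys and 0 gained, where 3.16% of all genes tested were lost and 1.9% gained. The lost genes were Arc, an endocytic regulator of neurons, Ier2, a nuclear factor, Plk2, a polo-like kinase, and Zfp36, which binds AU-rich mRNAs and promotes their decay. Each had a peak in 4 of 4 control and 0 of 4 IG kidneys (p = 0.0286, Fisher's exact test, adjusted p = 0.564). In TG, Arc had a peak in 1 kidney and the other 3 in none. A difference of at least 3 kidneys was seen in 7 genes with fewer and 3 with more IG kidneys, where 8.98% and 4.40% of all 7526 genes tested did so. In TvI, Trib1, a pseudokinase, was listed in 3 IG and 0 TG kidneys after 4 controls (p = 0.143, Fisher's exact test), as 1 of 18 genes tested. Over all genes tested in TvI, 3.30% had a peak in at least 3 fewer TG kidneys and 1.17% in at least 3 more.

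Among 27 kinases and serum response factors that act on immediate early genes, 12 to 14 had a peak in each control kidney, 8 to 10 in IG and 5 to 7 in TG. Map2k6, which activates p38, had a peak in all 4 control kidneys and in 0 of 4 IG and TG kidneys (IvC p = 0.0286, Fisher's exact test, adjusted p = 0.564). It was the 1 gene lost of 18 tested, with 0 gained, where 3.16% of all genes were lost and 1.9% gained. Map2k7, which activates the JNK kinases that phosphorylate c-Jun, was listed in 3 control kidneys and in 0 of IG and TG. Mrtfa, a coactivator of serum response factor, was listed in 4, 1 and 0 kidneys. With Map2k6 these made 3 of 18 genes with at least 3 fewer IG kidneys, where 8.98% of all genes had as many fewer. Map2k2, Map3k1, Mapk9 and Mrtfb had a peak in all 12. In the MYC network, 0 of 11 genes tested in IvC and 0 of 9 in TvI were gained or lost in all kidneys by Fisher's exact test (also 0 at an unadjusted p under 0.05), and Mycn, Mxi1, Mga and Fbxw7 had a peak in every kidney. All protein-coding genes with a peak made up 21.8% to 23.4% per control kidney, 18.6% to 21.3% per IG kidney and 16.4% to 18.7% per TG kidney.

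**Figure D4:**
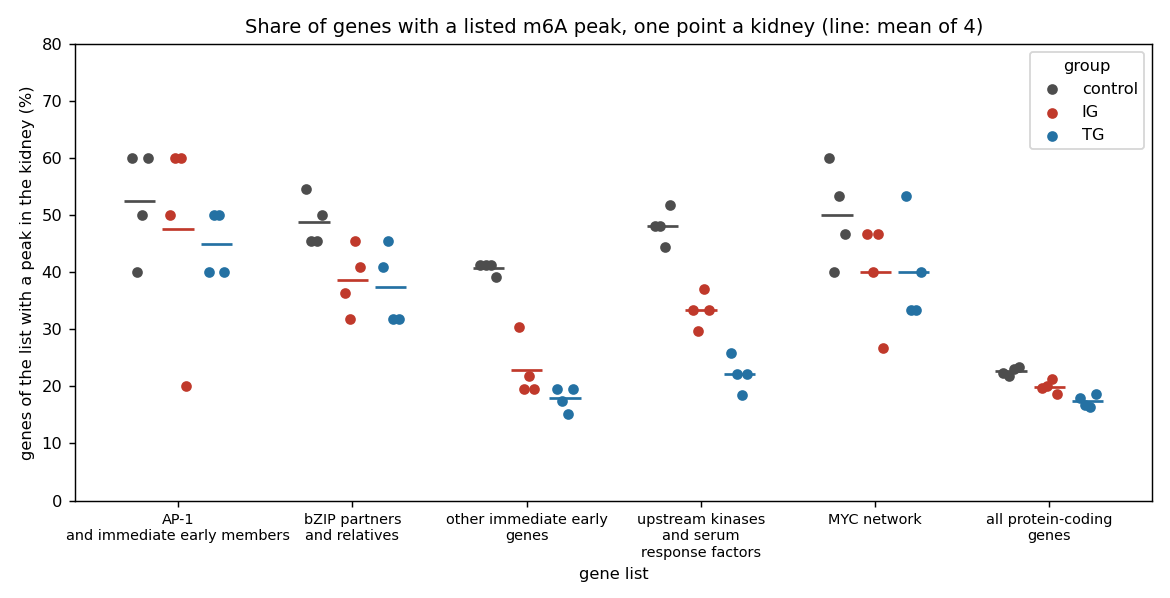
Percent of the genes of each list that had a peak, with 1 point per kidney and a line at the mean of the 4 kidneys of a group. The 46 other immediate early genes lie at 39.1% to 41.3% in controls and 15.2% to 19.6% in TG, while the 10 AP-1 and immediate early genes overlap between the groups.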

How the data were processed

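m6A peak lists of 12 kidneys were analysed (4 control, 4 IG, 4 TG, grouped by their titles). The authors trimmed reads with Cutadapt 1.9.3 and aligned them with HISAT2 2.0.4 to mm10 (GRCm38), as the submitters' processing notes and the methods state, called peaks per kidney with MACS, and retained those on mRNA exons. The version, threshold and control library of MACS are not given in the sources used here. The deposited score is a peak's p-value as -10 times its log10, unscaled for depth, and the deposited positions are in bp on mm10. No read counts were at hand, and the 4 kidneys of a group limit the precision. The study's read-based differential test (diffReps) was not used here.

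Peaks were joined by strand with at least 1 bp of overlap. Presence per locus and gene was compared with two-sided Fisher's exact tests, and score percentiles with exact permutation tests, also two-sided, over the 70 arrangements of 8 kidneys, each adjusted by the Benjamini-Hochberg method over all loci or genes. 3′ borders were compared where at least 7 of 8 kidneys had a peak. The tests were checked on simulated data. Genes were those of GENCODE M21, with codons from the transcript of the longest CDS. Ccn1, Ccn2, Mrtfa and Mrtfb were matched through RefSeq synonyms, and 1 listed MYC network gene, Miz1, was not matched. The genes and lists were chosen with earlier results of these data known.

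All 10 genes and their loci are named. From other lists, up to 4 genes per list and comparison are named whose number of kidneys with a peak differed by at least 3, largest first and then by symbol, and genes with a peak in all 12 kidneys were named after their values were seen. Genes most alike were the 3 of highest Pearson r with each of the 3 members that differed most in IvC. Alternatives were equal list lengths (5901 peaks), scores at or above the median (71.3), exons of 1 transcript, 50 bp of exon overlap, joining regardless of strand or with 50% reciprocal overlap, log10(score + 1), the replicate block and leaving out each kidney. Border and length comparisons, with their alternatives, were added after seeing the data. Tests ran in Python 3.11.15 with scipy 1.17.1 and numpy 2.4.6, sequences were read with samtools 1.23.1 and pysam 0.24.0, and plots were drawn with matplotlib 3.10.9.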

Additional observations from a re-analysis of the deposited data

Results flagged for a closer look

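The Jun score of IG replicate 3 was 892.04, while the other 3 IG kidneys were all at 3100, the value at which scores pile up. It was marked as a sample far from the others, the only 1 in 13 groups of 4 kidneys, where chance marks about 1 in 20 groups. Because the other 3 scores were equal, any lower value would have been marked, so the mark carries little information. In the same kidney the Egr1 peak was at 3100, the highest Egr1 score of the 12 kidneys.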

How the results depend on the processing

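No difference past p = 0.05 by its exact test changed direction, but 5 percentile differences that were not called did so, in 12 settings, 0 of them called. Fosb exon 4 in TvI was 2.14 and became -4.16 with scores at or above the median. Without 1 kidney at a time, it ranged from -10.5 to 17.9, Egr1 in IvC from -31.4 to 1.68, Jun in IvC from -1.48 to 0.486, Jund in TvI from -31.6 to 5.00 and Myc exon 3 in TvI from -10.02 to 14.6; the cause was not tested. Same-numbered kidneys did not deviate together (r from -0.020 to 0.029 in IvC and from -0.034 to 0.092 in TvI, with 2 of 4 kidneys closest to their own number in each), so the numbers did not pair the kidneys. With the replicate number as a block, 0 loci and 0 genes were called by presence in IvC (1 each without it), 0 loci by percentile in IvC (2) and 0 in TvI (1), because 4 pairs allow no exact sign-flip p below 0.125. With equal list lengths, 0 loci were called by percentile in TvI. With scores at or above the median, 1 locus had longer peaks in TvI (0 otherwise). Without 1 kidney at a time, the calls by presence were 1 to 2 in IvC for loci and for genes, and 0 in TvI. The second was Fosl2 without IG replicate 1, the 1 IG kidney with its peak. The calls by percentile were 1 to 3 in IvC, with Jund lost without any control and Fosl2 added without IG replicate 1, and 0 to 1 in TvI. Further downstream 3′ borders were called at 0 to 1 locus in IvC (2 otherwise) and 0 in TvI. The Egr1 call could not be kept once any kidney with an Egr1 peak was left out. Longer peaks were seen at 4 to 5 loci in IvC and 0 to 1 in TvI, the 1 arising without TG replicate 3 or 4. The other alternatives moved no count by over 1.5 times. Depth could not be examined, and with 4 kidneys a group no result passed adjustment over all loci.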

Other observations

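The genes whose peaks were most like those of Atf3 across the 12 kidneys, by Pearson r of log10(score + 1) over 7766 genes, were Creb5 (0.993), Mettl26 (0.993) and Grin2d (0.988), each with a peak in 0 control, 4 IG and 4 TG kidneys. For Fosl2 they were Tex264 (0.996), Heyl (0.990) and Dcp1b (0.987), each in 4 control, 1 IG and 0 TG kidneys. For Jund they were Palmd (0.960), Foxc1 (0.954) and Ski (0.939), in 4 control and 3 IG kidneys each and in 3, 3 and 2 TG kidneys. These values mostly restate which kidneys held a peak, and all genes share the lists and their lengths.

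Among immediate early genes not named above, Egr2, a relative of Egr1, had a peak in 0 control, 3 IG and 4 TG kidneys. Dusp10, a phosphatase of JNK and p38, had a peak in 1 control, 4 IG and 4 TG kidneys, and Nr4a2, an orphan nuclear receptor, in 0, 3 and 1. Csrnp1 and Zfp36l1 were listed in 3 control and in no IG or TG kidney, and Gadd45b in 4, 1 and 0. These 6 genes fell outside the naming rule and were chosen after their values were seen, and each gave p = 0.143 by two-sided Fisher's exact test in IvC. Of 10 endothelial and fibroblast markers, Pecam1, Cdh5, Pdgfrb and Pdgfra had a peak in all 12 kidneys, Emcn and Acta2 in 1 control and 1 TG kidney each, and Kdr, Col1a1, Col1a2 and Vim in none.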
